A study of Mus musculus with 4 samples.

Results

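Collagen crosslinking and hydroxylation enzymes were compared between mouse embryonic fibroblasts (MEF), 2 lines of induced pluripotent stem (iPS) cells and 1 line of embryonic stem (ES) cells. The set was defined by gene name and held 10 genes: the lysyl oxidase genes Lox, Loxl1, Loxl3 and Loxl4, the prolyl 4-hydroxylase subunit genes P4ha1, P4ha2 and P4ha3, and the lysyl hydroxylase genes Plod1, Plod2 and Plod3. All 10 were measured, out of 19938 genes in all, by 11 probe sets that each name 1 gene. Total RNA of each sample was measured on 1 array, with 4 arrays in all. The fibroblasts and the lines iPS 178B5 and iPS 492B4 had a mixed background of the strains DBA/2, C57BL/6 and 129S4. The line ES v6.5 came from an F1 of 129 and C57BL/6. Strain and cell origin therefore cannot be told apart where ES differs from iPS, nor strain and cell type where ES differs from MEF. The fibroblasts were grown without a feeder layer named in the labels. All 3 pluripotent lines were grown in ES cell medium on SNL cells treated with mitomycin-C, a mouse feeder line that carried a puromycin-resistance gene. The labels do not say whether feeder cells were removed before RNA was taken, or how the iPS lines were derived. Each line stands for 1 culture, and nothing in the labels describes repeats, so every p-value reflects only how far these samples lie apart, a spread that may be technical.

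Collagen chains are modified before and after they leave the cell. In the endoplasmic reticulum, prolyl 4-hydroxylases hydroxylate proline residues, which keeps the triple helix stable at body temperature, and lysyl hydroxylases hydroxylate lysine residues, which later serve as crosslinking sites and as attachment points for sugars. Outside the cell, the copper enzymes of the lysyl oxidase family oxidise lysine and hydroxylysine in collagen and lysine in elastin, and the products join neighbouring molecules. Fibroblasts are a main source of fibrillar collagen, while cells of the early embryo make mostly collagen of basement membranes.

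The deposited values are differences on a log scale, taken here as log2. Each probe set was centred so that the median of its 4 arrays was 0, so a centred value is the distance of an array from the midpoint of the middle 2 arrays. It is not an expression level, and genes cannot be ranked by level. A gene was called where limma's adjusted p was under 0.05 and the difference at least 1 log2, a 2-fold change. Over all genes the median difference from MEF lay between -0.13 and -0.06 log2 in the 3 lines. Of 10 pluripotency markers 10 were called higher in the lines, with a median of 6.06 log2. The 12 fibroblast markers all had their highest value on the MEF array, and 7 were called lower in the lines (2 with iPS 178B5 left out, 3 with iPS 492B4 left out, 12 with ES left out).

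The 10 enzymes fell into distinct patterns. All 4 lysyl oxidase genes and P4ha3 were far lower in every pluripotent line than in MEF, with the ES line between MEF and the iPS lines. P4ha1, P4ha2 and Plod2 stood close to or above MEF in both iPS lines and lower in ES. Plod3 was lower by a near equal amount in all 3 lines, and Plod1 was below MEF by less than 1 log2 in each. The 6 genes Lox, Loxl1, Loxl3, Loxl4, P4ha3 and Plod3 were at least 1 log2 below MEF in all 3 lines, beside 8.71% of all genes. With the 3 lines set against MEF in limma's test, 5 of 10 enzymes were called lower, beside 9.71% of all genes, and 0 were called higher, beside 7.90%. The spread in that fit comes from the 3 lines and so holds the distance between iPS and ES. The lone MEF array adds no spread and is assumed to vary like the lines. The enzymes called lower were Lox, Loxl1, Loxl4, P4ha3 and Plod3. Without iPS 178B5 the number was 3, beside 3.73% of all genes, and without iPS 492B4 it was also 3, beside 8.72%, since Lox and Loxl1 were not called in either fit. The median difference over the 10 enzymes was -2.58 log2, and over all genes it was -0.10 log2. The enzymes were chosen with earlier results of these data known, so their distance from all genes is not an independent result. With arrays centred on reference genes, the median over all genes was -0.26 log2, with 11.9% of genes called lower and 6.29% higher, and 6 enzymes were called lower.

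**Figure D1:**
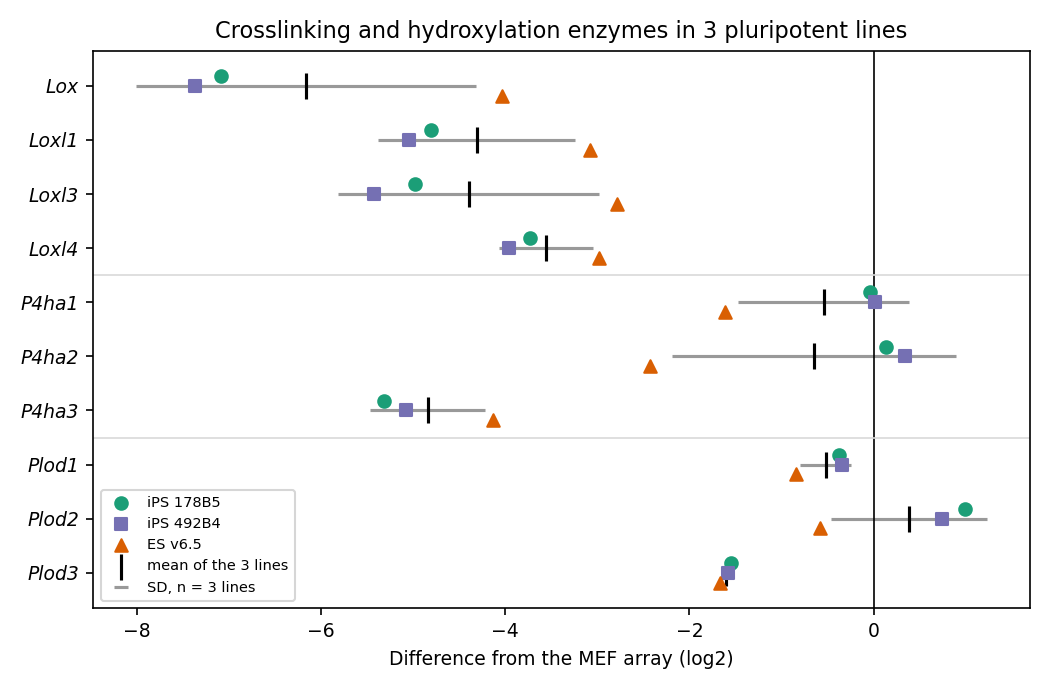
Difference of each pluripotent line from the MEF array in log2 units (horizontal axis) for the 10 enzymes (vertical axis); circles are iPS 178B5, squares iPS 492B4, triangles ES v6.5, black ticks the mean of the 3 lines and grey bars the SD over n = 3 lines. The lysyl oxidase genes and P4ha3 lie at -2.78 log2 or lower in every line, while P4ha1, P4ha2 and Plod2 have both iPS lines near or above 0 and ES below it.

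Lox encodes lysyl oxidase itself, the founding enzyme of the crosslinking family. Its centred value was 5.56 on MEF, -1.52 on iPS 178B5, -1.81 on iPS 492B4 and 1.52 on ES. The MEF array was the highest, ES stood apart from both iPS arrays, and the iPS arrays lay close to each other. Lox fell by 6.16 log2 from MEF to the lines (SD 1.85, n = 3 lines; limma adjusted p = 0.0462), and was lower in 3 of 3 lines. It had the second lowest difference of all genes. The call was lost on leaving out iPS 178B5 (adjusted p = 0.109) or iPS 492B4 (adjusted p = 0.0824), and on setting array medians equal (adjusted p = 0.0525).

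Loxl1, a family member that crosslinks elastin, had centred values of 3.94 on MEF, -0.86 on iPS 178B5, -1.10 on iPS 492B4 and 0.86 on ES. It fell by 4.31 log2 (SD 1.07; limma adjusted p = 0.0294). That call too was lost on leaving out iPS 178B5 (adjusted p = 0.0823) or iPS 492B4 (adjusted p = 0.0555). Loxl3, a family member with scavenger receptor domains, had centred values of 3.88, -1.10, -1.54 and 1.10 in the same order of arrays. All 3 lines lay below MEF, at -4.98 log2 in iPS 178B5, -5.43 log2 in iPS 492B4 and -2.78 log2 in ES. The mean difference was -4.40 log2 (SD 1.42) and was not called (adjusted p = 0.0555). It was called with ES left out (-5.21 log2, adjusted p = 0.00209) and with arrays centred on reference genes (-4.55 log2, adjusted p = 0.0483). The fit with ES left out is the same test as iPS against MEF, given below.

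Loxl4, also a member with scavenger receptor domains, was the only enzyme with several probe sets. These read 3.41 and 3.31 on MEF, -0.53 and -0.22 on iPS 178B5, -0.62 and -0.59 on iPS 492B4, and 0.53 and 0.22 on ES. Both probe sets placed the arrays in 1 order. Averaged, Loxl4 fell by 3.56 log2 (SD 0.51; limma adjusted p = 0.0107) and was called with each line left out in turn. Among the 4 lysyl oxidase genes the range over the 3 lines was 3.34 log2 for Lox, 2.64 log2 for Loxl3, 1.96 log2 for Loxl1 and 0.98 log2 for Loxl4.

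P4ha1, P4ha2 and P4ha3 encode alternative catalytic alpha subunits, each of which pairs with the beta subunit P4hb to form prolyl 4-hydroxylase. They did not share a pattern. RefSeq promoters of the 3 genes in GRCm38.p6 are shown as the 250 bases before the annotated start, since P4ha1 and P4ha2 moved together and P4ha3 did not. Capitals mark ACGTG and GCGTG on either strand, the core letters of the element bound by hypoxia-inducible factors, for which P4ha1 and P4ha2 are known targets. The windows are chr10:59323046-59323295 (plus strand) for P4ha1, chr11:54100674-54100923 (plus strand) for P4ha2 and chr7:100285270-100285519 (plus strand) for P4ha3.
P4ha1: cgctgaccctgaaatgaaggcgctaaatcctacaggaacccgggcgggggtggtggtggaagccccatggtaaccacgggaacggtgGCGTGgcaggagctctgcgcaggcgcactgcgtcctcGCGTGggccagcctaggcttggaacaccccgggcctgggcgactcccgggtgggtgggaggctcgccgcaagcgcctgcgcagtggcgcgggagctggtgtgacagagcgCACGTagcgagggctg
P4ha2: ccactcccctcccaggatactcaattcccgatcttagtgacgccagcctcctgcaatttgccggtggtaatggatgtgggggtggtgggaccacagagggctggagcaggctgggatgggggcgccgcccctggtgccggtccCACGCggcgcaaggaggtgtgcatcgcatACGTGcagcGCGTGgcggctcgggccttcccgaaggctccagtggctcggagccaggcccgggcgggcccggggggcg
P4ha3: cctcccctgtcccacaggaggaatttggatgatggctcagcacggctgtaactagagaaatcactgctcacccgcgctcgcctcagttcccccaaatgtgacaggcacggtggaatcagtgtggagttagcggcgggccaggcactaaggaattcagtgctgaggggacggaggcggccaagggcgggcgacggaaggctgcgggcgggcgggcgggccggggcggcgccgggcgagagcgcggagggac
The P4ha1 window held 1 ACGTG, at 16 bases before the start, and 2 GCGTG. The P4ha2 window held 1 ACGTG, at 78 bases before the start, and 2 GCGTG, and the P4ha3 window held 0 of either. Across all 32851 promoter windows of this length, 38.6% held at least 1 of the motifs and 6.58% held 3 or more matches. ACGTG is also part of the E-box CACGTG, and the windows are rich in G and C (69.6%, 70.0% and 67.2%). Promoters were at hand for 6 of the 10 enzymes, and not for Lox, Loxl1, Loxl3 and Plod2. Besides the 3 genes shown, Plod3 had 4 matches, and Loxl4 and Plod1 had 1 each. Plod3 did not share the pattern of P4ha1 and P4ha2, with an iPS minus ES difference of 0.10 log2. TATAAA and TGANTCA (N is any base) were also searched. TATAAA occurred in the Plod1 window only, beside 12.4% of all windows. TGANTCA occurred in none of the 6, beside 6.75%. A match is a description of the letters only.

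P4ha1 had centred values of 0.02 on MEF, -0.02 on iPS 178B5, 0.04 on iPS 492B4 and -1.60 on ES. MEF and both iPS arrays lay within 0.06 log2 of each other, and ES minus each of them was -1.58 log2 or lower. P4ha2 had centred values of -0.07 on MEF, 0.07 on iPS 178B5, 0.28 on iPS 492B4 and -2.49 on ES. Here ES minus each other array was -2.42 log2 or lower, and both iPS arrays were slightly above MEF. Neither gene was called with the 3 lines taken as 1 group (P4ha1 -0.54 log2, SD 0.93, adjusted p = 0.641; P4ha2 -0.65 log2, SD 1.54, adjusted p = 0.74), where the 95% interval ran from -2.52 to 1.43 log2 for P4ha1 and from -3.89 to 2.59 log2 for P4ha2. For P4ha2 the sign of that mean rested on ES, since it was 0.24 log2 without ES.

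P4ha3, the third alpha subunit, had its highest value on MEF and its next on ES, as the lysyl oxidase genes did. Its centred values were 4.61 on MEF, -0.72 on iPS 178B5, -0.47 on iPS 492B4 and 0.47 on ES. It fell by 4.84 log2 (SD 0.63, n = 3 lines; limma adjusted p = 0.00874), was lower in 3 of 3 lines and was called with each line left out.

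The lysyl hydroxylases act on different parts of the collagen molecule. Plod1, which acts mainly on the triple helix, had centred values of 0.36 on MEF, -0.02 on iPS 178B5, 0.02 on iPS 492B4 and -0.48 on ES. The mean difference from MEF was -0.52 log2 (SD 0.28; adjusted p = 0.22) with a 95% interval from -1.20 to 0.16 log2, and it was not called. Plod2, which acts on the telopeptides that form crosslinks, had centred values of -0.37 on MEF, 0.62 on iPS 178B5, 0.37 on iPS 492B4 and -0.96 on ES. Both iPS arrays were above MEF and ES was below it, so that the mean of 0.39 log2 (SD 0.85; adjusted p = 0.722) falls between the lines. Plod3, which also has glycosyltransferase activity, had centred values of 1.56 on MEF, 0.02 on iPS 178B5, -0.02 on iPS 492B4 and -0.10 on ES. It fell by 1.60 log2 (SD 0.06, n = 3 lines; limma adjusted p = 0.00675), with the smallest spread over the lines of the 10 enzymes.

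The iPS lines and the ES line were also each compared with MEF, in a fit with 3 groups whose spread comes from the 2 iPS lines, the lone MEF and ES arrays being assumed to vary like them. These comparisons share the MEF array. The test of iPS against MEF is the same as that of the lines with ES left out, not a separate result. In iPS against MEF, 6 of 10 enzymes were called lower, beside 11.2% of all genes, and 0 higher, beside 9.94%. The 6 were the 4 lysyl oxidase genes, P4ha3 and Plod3. In ES against MEF, 8 of 10 were called lower, beside 10.9% of all genes, and 0 higher, beside 9.14%. P4ha1 and P4ha2 were the added genes. P4ha1 stood at -0.01 log2 in iPS (adjusted p = 0.975) and fell by 1.62 log2 in ES (adjusted p = 0.00919). P4ha2 stood at 0.24 log2 in iPS (adjusted p = 0.326) and fell by 2.42 log2 in ES (adjusted p = 0.00714). Plod2 was 0.87 log2 above MEF in iPS (limma adjusted p = 0.0283), under the minimum of 1 log2, and -0.58 log2 in ES (adjusted p = 0.118). Plod1 was -0.84 log2 in ES (adjusted p = 0.0305), also under the minimum, and was called with reference gene centring (adjusted p = 0.0193).

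The difference between iPS and ES was tested directly in the same fit. Of 19938 genes limma called 0 (0.00% in either direction), while 3079 genes had an unadjusted p under 0.05, and 9 of the 10 enzymes were among them. With each array's median set equal, 29 genes were called lower and 15 higher in iPS, and Lox (-3.15 log2, adjusted p = 0.0408) and P4ha2 (2.70 log2, adjusted p = 0.0448) were among them. Reference gene centring gave 10 lower and 3 higher, with 0 enzymes among them. By value, iPS minus ES was -3.19 log2 for Lox (adjusted p = 0.0634), -2.42 log2 for Loxl3 (adjusted p = 0.0975), -1.84 log2 for Loxl1 (adjusted p = 0.0912), -1.06 log2 for P4ha3 (adjusted p = 0.16) and -0.86 log2 for Loxl4 (adjusted p = 0.186). P4ha2 was 2.66 log2 higher in iPS (adjusted p = 0.0634), P4ha1 was 1.61 log2 higher (adjusted p = 0.0869), Plod2 was 1.45 log2 higher (adjusted p = 0.113) and Plod1 was 0.48 log2 higher (adjusted p = 0.269). Plod3 differed by 0.10 log2, with a 95% interval from -0.28 to 0.48 log2.

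**Figure D2:**
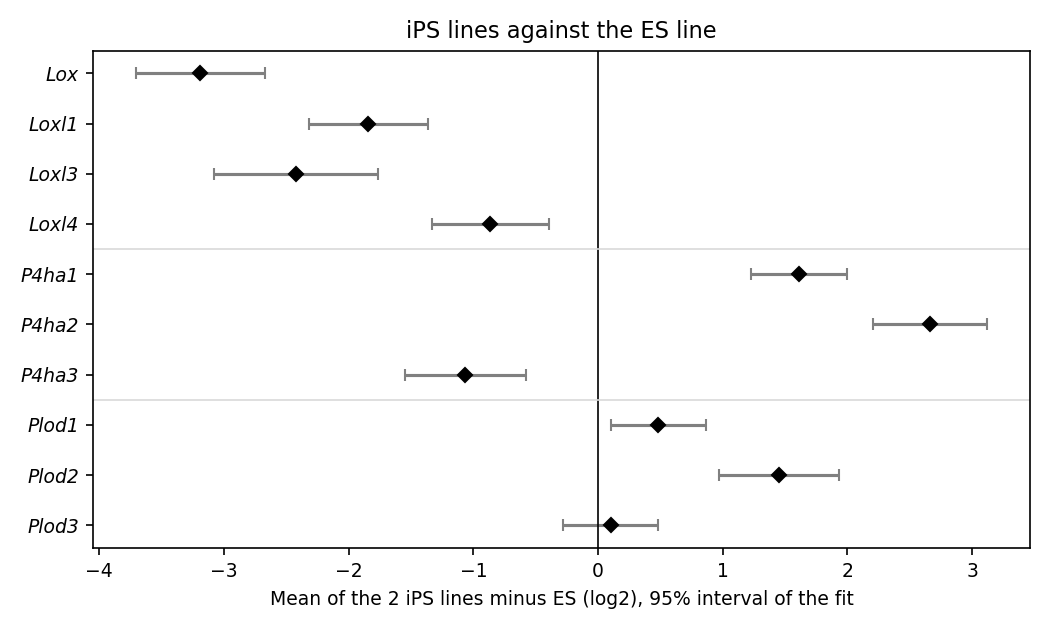
Mean of the 2 iPS lines minus the ES line in log2 units (horizontal axis) for the 10 enzymes (vertical axis), with the 95% interval of the 3-group fit, not adjusted for the number of genes. The lysyl oxidase genes and P4ha3 lie below 0, at -3.19 to -0.86 log2, and P4ha1, P4ha2 and Plod2 lie above it, at 1.45 to 2.66 log2.

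P4ha1 and P4ha2 were 2 of 57 genes, 0.286% of all, whose ES value was at least 1 log2 below each of the other 3 arrays. P4ha2 had the eleventh largest difference of iPS over ES among all genes. Lox, Loxl1 and Loxl3 were 3 of 134 genes, 0.672% of all, whose ES value was at least 1 log2 above both iPS arrays and at least 1 log2 below MEF. These counts have no test. Both shapes match the values of these enzymes and were not planned comparisons, so the small shares are not independent of those values. Between the iPS lines, 0 of 10 enzymes were at least 1 log2 apart, beside 0.612% of all genes. The largest difference between the iPS lines was in Loxl3, which was 0.44 log2 lower in 492B4, and the median size over the 10 was 0.23 log2, beside 0.14 log2 over all genes. Each line is 1 array, so this comparison has no test.

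Markers of other cell types moved with both patterns. All 12 fibroblast markers were below MEF in every line, with medians of -3.93 log2 in iPS 178B5, -3.94 log2 in iPS 492B4 and -2.38 log2 in ES. They ranged from -5.95 to -1.20 log2 in iPS 178B5, from -6.77 to -1.10 log2 in iPS 492B4 and from -3.32 to -0.65 log2 in ES. ES lay above both iPS lines for 11 of 12, all but Pdgfrb. The share of all genes with ES above or below both iPS lines was not computed. Such counts, here and for the lists below, therefore have no background. Over all genes the median iPS minus ES difference was -0.06 log2. The called markers with the largest differences were Ddr2 (-4.27 log2), Twist2 (-4.08 log2), S100a4 (-3.96 log2) and Col6a1 (-3.55 log2), and all 4 lost the call with iPS 178B5 left out, as did all but Twist2 with iPS 492B4 left out. The uncalled markers with the largest differences were Prrx1 (adjusted p = 0.0968) and Dcn (adjusted p = 0.138). Prrx1, a mesenchymal transcription factor, stood at -5.95, -6.77 and -2.75 log2 in iPS 178B5, iPS 492B4 and ES, and Dcn, a proteoglycan that binds collagen, stood at -3.78, -4.75 and -1.56 log2. All 6 smooth muscle markers were likewise higher in ES than in both iPS lines. The part of fibroblast RNA, feeder cells included, in the values of the lysyl oxidase genes and P4ha3 was not tested. In these bulk samples, fewer cells of a type and less RNA per cell cannot be told apart.

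For 10 of 11 primitive endoderm markers both iPS lines lay above ES, the side on which P4ha1, P4ha2 and Plod2 lay. The share of all genes on that side was not computed. The list's median difference from MEF was 0.88 log2 in iPS 178B5, 0.45 log2 in iPS 492B4 and -0.53 log2 in ES, with ranges of -1.46 to 2.58, -2.29 to 3.12 and -2.39 to 0.39 log2. In the lines against MEF 1 of the 11 was called lower and 0 higher. The 1 was Pdgfra, a growth factor receptor, at -1.46, -2.29 and -2.39 log2 (mean -2.05 log2, adjusted p = 0.0326), a call lost on leaving out iPS 492B4 (adjusted p = 0.0725). Dab2 and Sparc were also below MEF in every line, uncalled, with means of -0.62 and -0.47 log2. The uncalled genes with the largest differences went the other way in iPS. Gata6, a transcription factor of primitive endoderm, stood at 2.58, 1.92 and -0.82 log2, and Cubn, an endocytic receptor of visceral endoderm, at 2.08, 3.12 and -0.53 log2. Neither was called with the lines as 1 group. With ES left out 4 of the list were called higher and 1 lower, Gata6 and Cubn among the 4 (Gata6 2.25 log2, adjusted p = 0.0127; Cubn 2.60 log2, adjusted p = 0.0227). Primitive endoderm is known for making basement membrane. Afp, a marker of visceral endoderm and the exception among the 11, stood at -0.06, -0.41 and -0.21 log2. The part of primitive endoderm cells in the values of P4ha1, P4ha2 and Plod2 was not tested. Of 6 endothelial markers 1 was called higher and 2 lower in the lines against MEF (1 lower with iPS 178B5 left out), and of 6 macrophage markers 1 higher and 0 lower (2 higher with ES left out).

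The substrates of these enzymes were described from lists chosen by name, with earlier results of these data known. Of 11 fibrillar collagen genes 8 were called lower and 0 higher in the lines, with a median of -1.81 log2. Col1a2 fell by 4.76 log2, Col1a1 by 4.61 log2, Col5a2 by 3.74 log2 and Col3a1 by 3.34 log2. With iPS 178B5 left out 1 gene of the list was called, Col5a2, and Col1a2 was also lost on leaving out iPS 492B4 (adjusted p = 0.0547). The uncalled genes with the largest differences were Col27a1 (-0.62 log2, adjusted p = 0.0935) and Col24a1 (-0.46 log2, adjusted p = 0.121). In all 11 both iPS lines were below ES, as they were for the lysyl oxidase genes. Among 10 elastic fibre genes, which make or organise the substrate of the lysyl oxidases, 6 were called lower and 0 higher. The median over the 10 was -2.83 log2. Fbln5, which guides elastin assembly, stood at -5.38 log2, Mfap5 at -3.92 log2, Mfap2 at -3.05 log2 and Emilin1 at -2.62 log2. Efemp1 and Fbln2, also fibulins, stood at -4.44 and -3.55 log2 and were not called (adjusted p = 0.0558 and 0.0775), but were with ES left out (adjusted p = 0.00378 and 0.00298). Leaving out iPS 178B5 reduced the count to 2, and Mfap5, Mfap2 and Emilin1 lost their calls (adjusted p = 0.065, 0.069 and 0.0644).

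Type IV collagens, the collagens of basement membranes, did not move as 1 group. Col4a5 fell by 1.43 log2 and was the only one of 6 called in the lines against MEF, a call lost on leaving out iPS 178B5 (adjusted p = 0.0818). Col4a1 stood at 0.37 log2 in iPS 178B5, -0.18 log2 in iPS 492B4 and -1.81 log2 in ES, and Col4a2 at -0.19, -0.77 and -2.05 log2. These 2 chains, which form the common type IV trimer, were the members in which both iPS lines lay above ES, and both were below ES in the other 4.

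**Figure D3:**
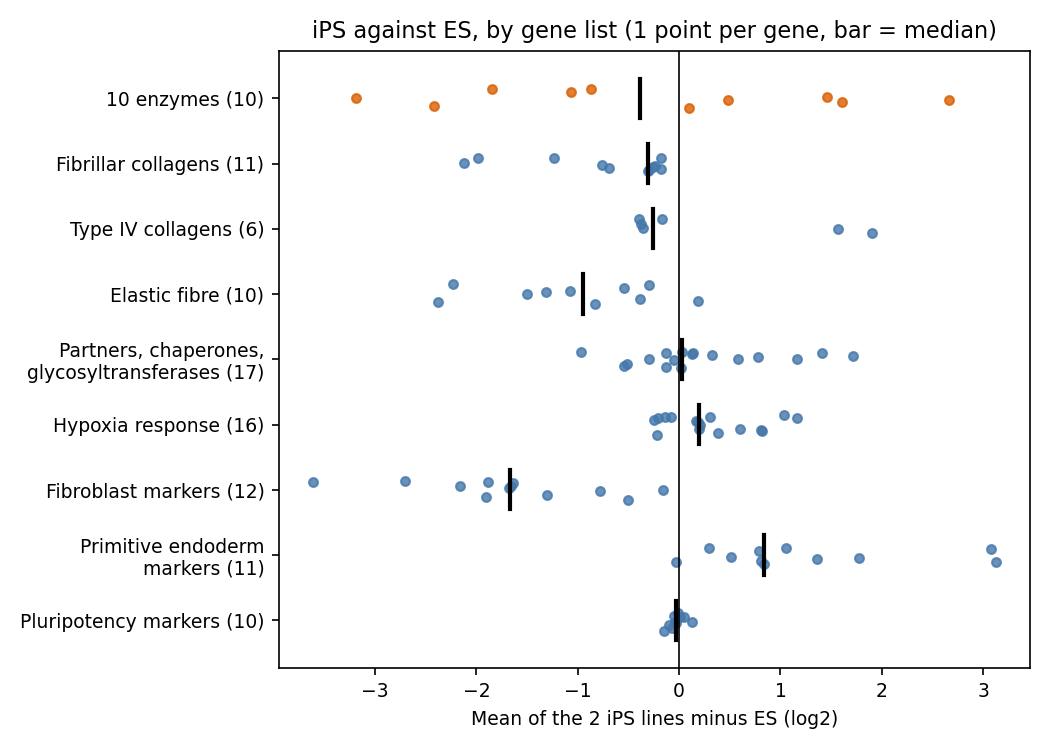
Mean of the 2 iPS lines minus ES in log2 units (horizontal axis) for the 10 enzymes and for 8 gene lists (vertical axis, number of measured genes in brackets), 1 point per gene with the median as a black bar; vertical scatter within a list has no meaning. The enzymes spread from -3.19 to 2.66 log2, fibroblast markers have a median of -1.67 log2 and primitive endoderm markers one of 0.83 log2.

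Among other enzymes and chaperones of collagen folding, both iPS lines lay above ES in 7 genes and below ES in 6. Of 17 measured genes in this list 7 were called lower and 0 higher in the lines, with a median of -1.12 log2. Fkbp14 and Fkbp7, prolyl isomerases of the endoplasmic reticulum, stood at -3.09 and -2.85 log2, P3h3, of the prolyl 3-hydroxylase family, at -2.83 log2, and Sec24d, a coat protein for procollagen export, at -2.20 log2, all called. Leaving out iPS 178B5 reduced the count to 3, and P3h3 and Sec24d lost their calls (adjusted p = 0.0614 and 0.0649). Serpinh1, the collagen chaperone HSP47, stood at -1.40 log2 in iPS 178B5, -1.88 log2 in iPS 492B4 and -2.81 log2 in ES (mean -2.03 log2, adjusted p = 0.0716), and was called with ES left out (-1.64 log2, adjusted p = 0.015). Kdelr3, a receptor that returns proteins to the endoplasmic reticulum, stood at -0.78, -0.82 and -2.21 log2. P4hb, the partner of all 3 alpha subunits, stood at -0.32, -0.25 and -0.87 log2 (mean -0.48 log2, adjusted p = 0.309), and was again lowest in ES. Of 8 procollagen processing genes 1 was called lower and 1 higher. They were the proteinase gene Tll1 at -3.62 log2 and the meprin gene Mep1b at 1.55 log2. Neither gene was called without iPS 178B5 (adjusted p = 0.0658 and 0.0732), nor was Mep1b with iPS 492B4 left out (adjusted p = 0.082). Pcolce and Pcolce2, enhancers of procollagen C-proteinase, stood at -2.17 and -0.86 log2 and were not called (adjusted p = 0.0849 and 0.211), but were with ES left out (adjusted p = 0.00784 and 0.0125).

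The hydroxylases need oxygen, iron and ascorbate, and P4ha1, P4ha2 and Plod2 are known targets of hypoxia-inducible factors. Of 16 other hypoxia response genes 4 rose and 1 fell in the lines, with a median of 0.36 log2. Pdk1 rose by 2.23 log2, Egln3, itself a prolyl hydroxylase, by 2.04 log2 and Hk2 by 1.98 log2, while Adm fell by 3.98 log2. Bnip3 (0.86 log2, adjusted p = 0.201) and Egln1 (-0.70 log2, adjusted p = 0.0429, under the minimum of 1 log2) were not called. In 10 of the 16 both iPS lines lay above ES, and in 4 both lay below it. The list's median iPS minus ES difference was 0.20 log2. The difference reached 1 log2 in 2 of the 16, Pfkfb3 (1.17 log2) and Ddit4 (1.04 log2). It was -0.08 log2 for Pdk1 and -0.25 log2 for Egln3. Of 7 ascorbate and iron supply genes 1 was called higher and 1 lower. They were the transferrin receptor gene Tfrc at 2.77 log2 and Gsto1 at -1.51 log2. Tfrc is also a reference gene used for centring. Gulo, which makes the last step of ascorbate synthesis in mice, stood at 2.12 log2 in iPS 178B5, 2.59 log2 in iPS 492B4 and 0.88 log2 in ES (mean 1.86 log2, adjusted p = 0.135), and was called with ES left out (2.36 log2, adjusted p = 0.0069). The ascorbate transporter gene Slc23a1 (1.18 log2, adjusted p = 0.11) was called only with iPS 492B4 left out among the left-out fits (adjusted p = 0.0241).

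The genes closest to each enzyme were found by the root mean square difference over the 4 centred values, among 19928 other genes. For Lox these were Prg4 (0.186 log2) and Col12a1 (0.335 log2), for Loxl1 Htr1b (0.103 log2) and Itgbl1 (0.135 log2), for Loxl3 Inhba (0.108 log2) and Ddr2 (0.121 log2), and for Loxl4 Parp3 (0.0404 log2) and Cd248 (0.0434 log2). Of these, Ddr2 encodes a collagen receptor and Col12a1 a fibril-associated collagen. For P4ha1 they were Tinagl1 (0.0968 log2) and Rbp4 (0.132 log2), for P4ha2 Ankrd1 (0.219 log2) and Vnn1 (0.25 log2), and for P4ha3 Fat4 (0.11 log2) and Cyp1b1 (0.19 log2). For Plod1 they were Atp6ap2 (0.0169 log2) and Slc38a10 (0.0271 log2), for Plod2 Bmp6 (0.107 log2) and Retreg1 (0.108 log2), and for Plod3 Tlr6 (0.0188 log2) and Syne1 (0.0253 log2). The closest gene was farthest away for P4ha2 and Lox. With 4 arrays, closeness describes these samples only.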

How the data were processed

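Each of 4 samples of mouse cells was hybridised to an Affymetrix array. The authors deposited log2 values (base 2 is an assumption, as no source names the base) of 28853 probe sets, made with GCRMA per the submitters' processing notes, its version being not given in the sources used here. Every probe set had a median of 0 over the 4 arrays (within 1e-06). Depth does not apply, and the number of arrays limits precision.

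Probe sets with 1 gene symbol in the platform annotation (21789) were averaged to 19938 genes; 21698 matched the GRCm38.p6 gene table by gene identifier and 0 symbols changed. Probe sets with several symbols (1621) or none (5443) were left out, and 0 of those with several named an enzyme of the set. Groups came from the labelled cell type. limma 3.58.1 (R 4.3.3) was fitted over all genes, with Benjamini-Hochberg adjustment: 3 lines against MEF (2 residual degrees of freedom), and 3 groups (1 residual degree of freedom). The fit of 3 lines against MEF was also run on simulated data with equal spread on all 4 arrays. That run cannot show whether the lone MEF array varies like the lines. Alternatives were array centring, leaving out each line, robust moderation, probe set rules, the 3-group fit and no fold minimum; counts per gene list under left-out lines were added after seeing the data.

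The enzymes and lists were chosen with earlier results of these data known. Named were all 10 enzymes, up to 4 called and 2 uncalled genes per list with the largest differences, and the 2 closest genes per enzyme; pluripotency, smooth muscle, endothelial, macrophage and reference gene lists are given by counts or not at all. P4hb, Afp, Pdgfrb, Dab2, Sparc, Pfkfb3 and Ddit4 were named outside that rule, after their values were seen. Lists share some genes, and Fkbp10, Adamts2, Fbn1 and Efemp2 were not measured by a probe set of their own.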

Additional observations from a re-analysis of the deposited data

Results flagged for a closer look

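P4ha2 and Plod2 drew attention because both iPS lines lay above MEF while ES lay below it. The mean of the iPS lines minus ES was 2.66 log2 for P4ha2 and 1.45 log2 for Plod2. The test of that difference did not pass in limma's 3-group fit (adjusted p = 0.0634 and 0.113). For P4ha2 the distance of the iPS lines above MEF was 0.13 log2 in 178B5 and 0.34 log2 in 492B4.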

How the results depend on the processing

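The number of enzymes called lower in the lines against MEF was 5, and 3 to 6 with a line left out: 3 without iPS 178B5, 3 without iPS 492B4 and 6 without ES, beside 3.73%, 8.72% and 11.2% of all genes (9.71% with every line). It was 4 to 6 under the other settings, beside 8.68% to 11.9% of all genes where the fold minimum was kept, and 0 enzymes were called higher under any setting run. The median over the enzymes, -2.58 log2, was -2.74 log2 with reference gene centring, -1.60 log2 over genes with 1 probe set (Loxl4 dropped out) and -2.71 to -2.48 log2 with a line left out. For iPS against MEF, the same test as the lines without ES, the count stayed at 6, beside 10.1% to 13.5% of all genes. It was 5 where Loxl4 dropped out. For ES against MEF the count of 8 was 7 where Loxl4 dropped out and 9 with reference gene centring, beside 10.3% to 13.4%. For iPS against ES it was 0 except with equal array medians, where it was 2 (Lox and P4ha2); the cause was not tested. Between the iPS lines it was 0 under every setting run. Of 99 alternative values of single enzymes against MEF, 91 kept their side of the threshold and 0 turned a called direction. The call was lost in 5 (Lox in 3, Loxl1 in 2) and gained in 3 (Loxl3). Robust moderation, the 3-group fit and the probe set rules left the difference of every enzyme kept as it was. They could change only its p-value. All 5 losses came from leaving out an iPS line or from equal array medians. Leaving out an iPS line in the 3-group fit leaves no residual degrees of freedom, so that it gives values without a test. No paired analysis was possible, since MEF and ES had 1 array each and nothing in the labels pairs the arrays. Centring removed expression levels, so no value could be set against background.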
